A study of Mus musculus with 32 samples.

Results

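The 29 genes described here encode enzymes of cholesterol synthesis, proteins that control the sterol-responsive transcription factors, and proteins that take up, move, esterify or oxidise cholesterol. They were taken by gene symbol from a table of 55401 genes counted by RNA sequencing of mouse cerebral cortex. All 29 were found and all 29 passed the filter on low counts, with at least 34 counts in every library, among 16042 genes tested. The 32 animals, 1 library each, were 6 weeks old. The 12 euploid controls carried the label +/+, 6 of each sex. The 10 Ts65Dn;Df(17)2 and 10 Dp(16)1/Df(16)8 animals were 5 of each sex by label. As background, Ts65Dn mice carry a freestanding additional chromosome made of the distal part of chromosome 16 and the centromeric end of chromosome 17, and Dp(16)1 mice carry a duplication of the chromosome 16 part in its place. The deficiencies Df(17)2 and Df(16)8 remove most of what the other model does not have, so the animals differ mainly in whether the additional dose sits on a separate chromosome. The alleles are constitutional and present in every tissue, and the labels name no treatment for any group.

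The brain makes nearly all of its own cholesterol, because lipoproteins of the blood do not cross the blood-brain barrier. Acetyl-CoA is built up through HMG-CoA and mevalonate to isoprenoids, which are joined to squalene, closed to lanosterol and trimmed to cholesterol. When the endoplasmic reticulum is low in sterol, SCAP carries the SREBP transcription factors to the Golgi apparatus for release, and INSIG proteins hold them back when sterol is plentiful. Neurons dispose of cholesterol by oxidising it with CYP46A1.

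Library totals ran from 5795479 to 11189548 counts. Transcripts of the X-inactivation gene Xist and of the Y chromosome went with the labelled sex in 31 libraries. The exception was the library labelled female of Dp(16)1/Df(16)8 replicate 2, with only 14 Xist counts but 696 for the Y-linked Ddx3y and 281 for Eif2s3y. The excitatory neuron markers of cortex were present in every library, with a sum over 10 genes of 2429 to 5630 CPM (counts divided by library size, normalised with TMM factors). The sum of 12 markers of striatal projection neurons ran from 339.8 to 4182 CPM, a wide range within each genotype. In bulk tissue, fewer cells of a type and less RNA per cell cannot be told apart. Each library has its own animal number in the labels, and p-values measure the spread between these animals.

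Levels were compared between genes per length, as CPM per kilobase of annotated exon. In +/+ cortex Hmgcs1, the HMG-CoA synthase of the cytosol, stood highest at 58.8 ± 6.54 (SD, n = 12). Cyp46a1, the neuronal cholesterol hydroxylase, followed at 39.7 ± 5.36, and Srebf2, the SREBP that chiefly drives sterol synthesis genes, at 27.2 ± 1.97. These 3 did not overlap their neighbours in the order within 1 SD. Below them Sc5d, a late sterol desaturase, Insig1 and Fdft1, the squalene synthase, lay at 15.3 ± 0.830, 15.1 ± 1.51 and 15 ± 1.46 and could not be ordered. From there to Abca1, an efflux pump at 8.61 ± 1.21, each gene overlapped the next within 1 SD, and the same held from Npc1 (6.70 ± 0.506) down to Mvk (3.61 ± 0.450). The lowest were Fdps at 2.47 ± 0.468, Lss at 2.43 ± 0.256, Idi1 at 2.17 ± 0.199 and Tm7sf2, a sterol reductase, at 1.55 ± 0.339. Dividing by the longest transcript in place of all exons moved 21 of the 29 levels by more than their SD. It raised Msmo1 from rank 10 to rank 4, at 21.6, and left the first 3 ranks and the last as they were.

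**Figure D1:**
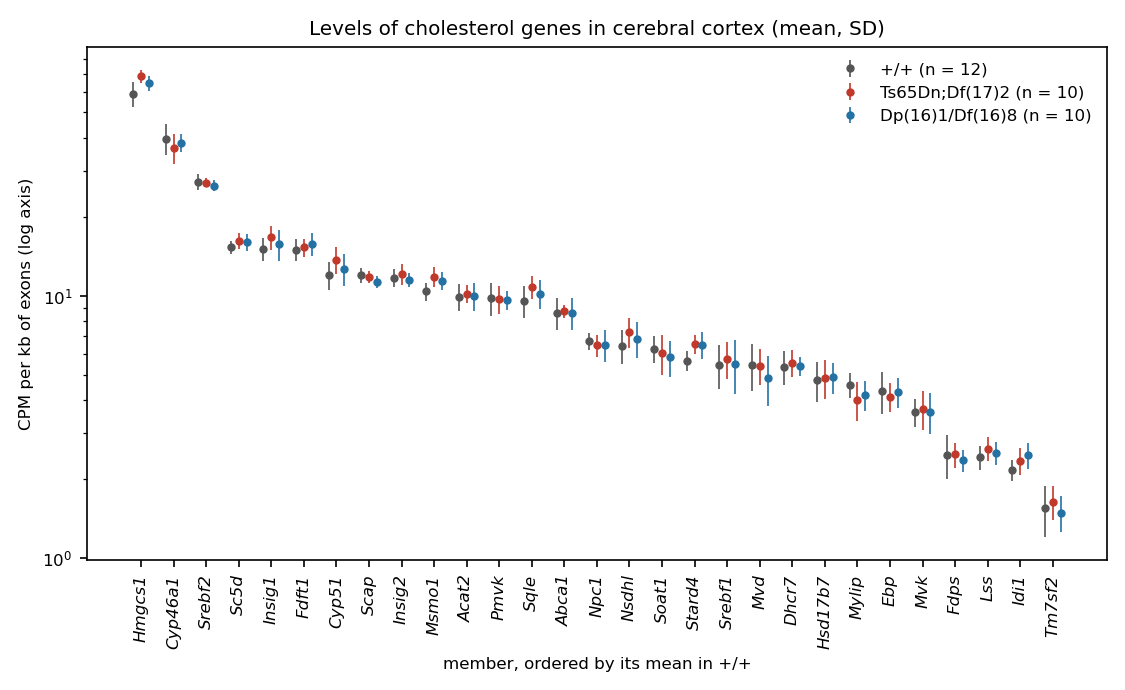
Mean CPM per kilobase of exons (log axis, with SD) of the 29 genes in each genotype, ordered by the mean in +/+. Hmgcs1, Cyp46a1 and Srebf2 stand above all others in each genotype, and the genotypes lie close together at every gene.

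Exons of some members overlap those of a neighbour, so these counts can be too high or too low. The strand setting of the counting is not given in the sources used here. On GRCm38, exons of Fdft1 share 774 bases with those of Ctsb on the other strand, and those of Npc1 share 511 with Rmc1. On the same strand, where that setting makes no difference, those of Fdps share 1124 with the gene model Gm43738 and those of Tm7sf2 share 532 with Vps51. Of the genes named most below, Hmgcs1 (chromosome 13, 119690379 to 119708260) shares 557 bases, 12.1% of its exons, with the antisense gene Gm48342. Msmo1 (chromosome 8, 64718139 to 64733792) and Stard4 (chromosome 18, 33199355 to 33213862) share none.

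Against +/+, 3 of the 29 genes rose in Ts65Dn;Df(17)2 and none fell. They were Hmgcs1, which condenses acetyl-CoA and acetoacetyl-CoA to HMG-CoA, Msmo1, an oxidase that acts in the removal of methyl groups from sterol precursors, and Stard4, a soluble carrier of cholesterol between membranes. The changes were small, between 1.13-fold and 1.17-fold. Among all tested genes 1.75% rose and 2.22% fell by the same test, edgeR's quasi-likelihood F test with Benjamini-Hochberg adjustment at 0.05. The log2 fold change was above 0 for 21 of the 29 (72.4%; 51.4% of all genes), with a median of 0.04 (0.00 for all genes). At an unadjusted p under 0.05 the count was 8 higher and 1 lower, 31% of the members against 21.8% of all genes.

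Hmgcs1 had a lowest, median and highest value of 234.9, 260.3 and 340.5 CPM in +/+, and of 285.2, 316.0 and 349.9 CPM in Ts65Dn;Df(17)2. Of the 12 +/+ animals 9 lay below every Ts65Dn;Df(17)2 animal, and replicate 1 of +/+ stood at 340.5 CPM, within the aneuploid range. The means were 269.9 ± 30.05 (SD, n = 12) and 315.1 ± 16.9 (n = 10), a log2 fold change of 0.22 (SE 0.0506, adjusted p = 0.0122), and all 10 aneuploid animals were above the +/+ mean. Leaving out 1 library at a time gave log2 fold changes of 0.20 to 0.26 over 32 fits (edgeR adjusted p from 3.2e-04 to 0.0288). The fit without +/+ replicate 1 had the lowest of these p-values, with a log2 fold change of 0.26.

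The promoter of Hmgcs1 is shown because the gene had the strongest change and because its window holds a sterol regulatory element core, the site that SREBPs bind. The stretch is the 250 bases before the transcription start in RefSeq (GRCm38.p6, chr13:119690101-119690350, plus strand). Capitals mark the sterol regulatory element core, CACNCCAC, and the CCAAT box read on the other strand, ATTGG.
Hmgcs1: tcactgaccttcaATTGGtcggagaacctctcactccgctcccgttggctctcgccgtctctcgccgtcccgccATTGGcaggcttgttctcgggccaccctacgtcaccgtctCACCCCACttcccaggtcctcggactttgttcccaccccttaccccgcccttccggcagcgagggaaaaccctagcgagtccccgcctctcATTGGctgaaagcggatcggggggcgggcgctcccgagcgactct
The core lies between the second and the third of the 3 CCAAT boxes. Insig1, itself known as an SREBP target, is shown from 250 to 50 bases before its start (chr5:28071162-28071362, plus strand), with 1 CCAAT box in capitals; its single core match lies nearer the start, outside the stretch.
Insig1: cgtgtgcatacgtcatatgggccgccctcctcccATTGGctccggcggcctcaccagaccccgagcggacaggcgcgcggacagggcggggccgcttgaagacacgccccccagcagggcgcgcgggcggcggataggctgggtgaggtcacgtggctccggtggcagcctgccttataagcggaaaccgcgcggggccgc
For Msmo1 the 29 bases around the CCAAT box nearest the RefSeq start are shown (chr8:64733617-64733645, minus strand, written along the gene). The stretch lies before that start but inside the gene as GENCODE gives it, where it begins at 64733792 on this strand. No core match was found in its window.
Msmo1: gagtggggcggaCCAATtacgacaggcga
The RefSeq table held promoters for 24 of the 29 genes, in 32 windows of 300 bases, and none for Stard4. Searched on both strands, CACNCCAC was in 3 of the 32 windows (9.38%; 6.24% of all 32851 windows), those of Hmgcs1, Insig1 and Acat2. CCAAT was in 68.8% of the windows against 37.4% of all, and the GC box GGGCGG in 84.4% against 35.7%. No match of one motif overlapped a match of another. A match describes letters in the window and was not tested as a binding site.

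Msmo1 ran from 55.6 over a median of 64.0 to 71.2 CPM in +/+ and from 65.7 over 70.3 to 84.2 CPM in Ts65Dn;Df(17)2. The groups overlapped, with 4 aneuploid animals above every control and 7 controls below every aneuploid animal. The means were 64.0 ± 5.04 and 72.5 ± 6.30, a log2 fold change of 0.18 (SE 0.0518, edgeR adjusted p = 0.0473). Stard4 ran from 28.1 over 31.1 to 36.3 CPM in +/+ and from 32 over 36.6 to 41.1 CPM in Ts65Dn;Df(17)2. Here 6 aneuploid animals lay above every control and 7 controls below every aneuploid animal. Its means were 31.6 ± 2.80 and 36.5 ± 2.98, a log2 fold change of 0.21 (SE 0.0605, edgeR adjusted p = 0.0488). For both genes all 10 aneuploid animals were above the +/+ mean, and both adjusted p-values lay close to the threshold. Msmo1 still passed in 11 of 32 fits that left out 1 library and Stard4 in 8, while Hmgcs1 passed in all 32.

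**Figure D2:**
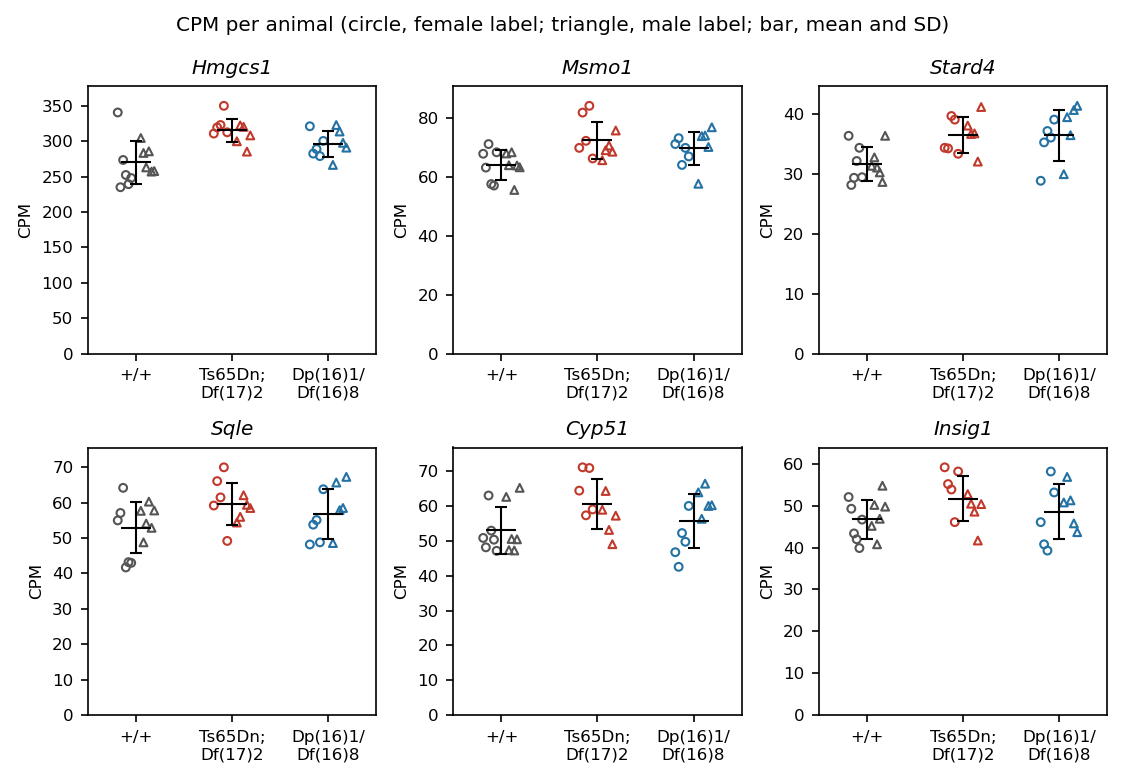
CPM of 6 genes in each animal by genotype (circles, female label; triangles, male label), with the mean and SD. The genotypes overlap in every panel; Hmgcs1, Msmo1 and Stard4 passed the test in Ts65Dn;Df(17)2 and the other 3 did not.

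The animal numbers on the labels, cut to their first 3 digits, fall into 5 blocks, and 8 of the 10 Ts65Dn;Df(17)2 animals share a block with 7 +/+ and 3 Dp(16)1/Df(16)8 animals. The other 2, with the lowest numbers and both labelled female, have no control beside them. What the numbers stand for is not stated. With these blocks as terms no member passed: log2 fold changes were 0.19 for Hmgcs1 (edgeR adjusted p = 0.216), 0.13 for Msmo1 (adjusted p = 0.457) and 0.22 for Stard4 (adjusted p = 0.191). Within the shared block, Hmgcs1 stood at 277.3 ± 36.2 CPM in +/+ (n = 7) and 311.1 ± 13.2 in Ts65Dn;Df(17)2 (n = 8), Msmo1 at 66.6 ± 2.97 and 71.8 ± 5.04, and Stard4 at 30.8 ± 2.88 and 36.6 ± 3.01.

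Cell type markers moved with the same comparison. Of 10 excitatory cortical neuron markers 5 fell in Ts65Dn;Df(17)2 (among them Lamp5, Cux2, Fezf2 and Rorb), with a median log2 fold change of -0.54 over the list. Their sum ran from 2492 to 5630 CPM in +/+ and from 2535 to 4211 CPM in Ts65Dn;Df(17)2. All 12 striatal markers had a fold change above 1 and none passed, with a median log2 of 0.73 and a sum of 339.8 to 4182 CPM against 1045 to 3699 CPM. Astrocyte markers were mixed: of 11, Fgfr3 and Aldoc fell, while 5 had a log2 fold change above 0, with a median of -0.13. Their sum ran from 6163 to 7528 CPM against 5689 to 6977, and their mean log2 CPM was 6.93 against 6.92. None of 14 oligodendrocyte markers passed, at 2218 to 6360 CPM against 3078 to 5585. Other lists had a marker that rose: Col3a1 of 8 meningeal markers (log2 0.87, edgeR adjusted p = 0.0167), Ctss of 9 microglial markers (0.44, adjusted p = 0.00372) and Lhfpl3 of 6 oligodendrocyte precursor markers (0.53, adjusted p = 0.0441). The meningeal markers, all 8 with a log2 fold change above 0, summed to 53.4 to 127.9 CPM in +/+ and 57.3 to 153.2 CPM in Ts65Dn;Df(17)2. Of the microglial markers 5 of 9 had a log2 fold change above 0, with a median of 0.01, and of the precursor markers 5 of 6, with a median of 0.22. The microglial sum ran from 252.2 to 396.4 CPM against 300.4 to 349.5, and the precursor sum from 232.0 to 314.8 CPM against 269.9 to 333.0. No listed marker of these 7 types was at 0 in any library. With the striatal score as a term Hmgcs1 stood at 0.26 (edgeR adjusted p = 0.00807), Msmo1 at 0.18 (adjusted p = 0.132) and Stard4 at 0.24 (adjusted p = 0.0702). The part of the excitatory neuron, astrocyte, meningeal, microglial and precursor markers in these changes was not tested.

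By step of the pathway, Hmgcs1 was the 1 of 6 genes from HMG-CoA to farnesyl diphosphate that rose. Mvk and Pmvk, the kinases that phosphorylate mevalonate and its phosphate, had log2 fold changes of 0.04 (SE 0.0993) and -0.01 (SE 0.0763). Mvd, which decarboxylates the product to the first isoprenoid, had 0.00 (SE 0.119), the isomerase Idi1 had 0.12 (SE 0.0735) and Fdps, the farnesyl diphosphate synthase, 0.02 (SE 0.0903). None of these 5 passed, and their upper 95% bounds of 0.24, 0.14, 0.23, 0.26 and 0.20 do not exclude changes near that of Hmgcs1 except at Pmvk.

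From squalene to cholesterol 1 of 11 genes rose, Msmo1, and 10 of the 11 had a log2 fold change above 0. Cyp51, which demethylates lanosterol, stood at 53.1 ± 6.68 CPM in +/+ and 60.6 ± 7.18 in Ts65Dn;Df(17)2, a log2 fold change of 0.20 (SE 0.0769) with 9 of 10 animals above the +/+ mean. Sqle, the epoxidase that is a rate-limiting step of this branch, stood at 53.0 ± 7.30 and 59.6 ± 5.86 CPM (0.17, SE 0.0741), also with 9 of 10 above. Neither passed after adjustment (edgeR adjusted p = 0.129 and 0.168). Nsdhl, the dehydrogenase that works with Msmo1 and is X-linked, had 0.18 (SE 0.0880), and Sc5d 0.09 (SE 0.0430). Lss, which closes the sterol rings and whose human counterpart is on chromosome 21, lies on mouse chromosome 10 outside the trisomic region and had 0.11 (SE 0.0661). The rest were Fdft1 at 0.04, Tm7sf2 at 0.08, Hsd17b7, a sterol ketone reductase, at 0.03, Dhcr7, the reductase mutated in Smith-Lemli-Opitz syndrome, at 0.06 and the isomerase Ebp, also X-linked, at -0.07.

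None of the 6 genes grouped under SREBP control passed, where Mylip, which acts on lipoprotein receptors, was placed by its position in the list. Srebf2 had means of 195.0 ± 14.1 CPM in +/+ and 194.0 ± 7.84 in Ts65Dn;Df(17)2 (log2 -0.01, 95% interval -0.08 to 0.06). Scap, the escort of SREBPs, had -0.03 (interval -0.10 to 0.05), Insig2 0.04 (-0.06 to 0.14) and Srebf1, which chiefly drives fatty acid genes, 0.08 (-0.13 to 0.29). Insig1 stood at 46.8 ± 4.66 and 51.7 ± 5.38 CPM (0.14, edgeR adjusted p = 0.220). Mylip, the ligase that marks lipoprotein receptors for breakdown, was the member with the most negative value, 14.8 ± 1.58 and 13 ± 2.25 CPM (-0.19, adjusted p = 0.204).

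The last 6 genes of the list are those of transport and turnover together with Acat2, an enzyme of synthesis. Of these Stard4 alone rose. Acat2, a cytosolic thiolase that makes acetoacetyl-CoA, had a log2 fold change of 0.04 (SE 0.0698), on chromosome 17 from 12942890 to 12960747. Abca1 had 0.02 (SE 0.0659), the esterifying enzyme Soat1 -0.05 (SE 0.0887), the lysosomal exporter Npc1 -0.05 (SE 0.0647) and Cyp46a1 -0.11 (SE 0.0723). Acat2 has a close paralogue beside it, so the share of reads assigned to it is uncertain.

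**Figure D3:**
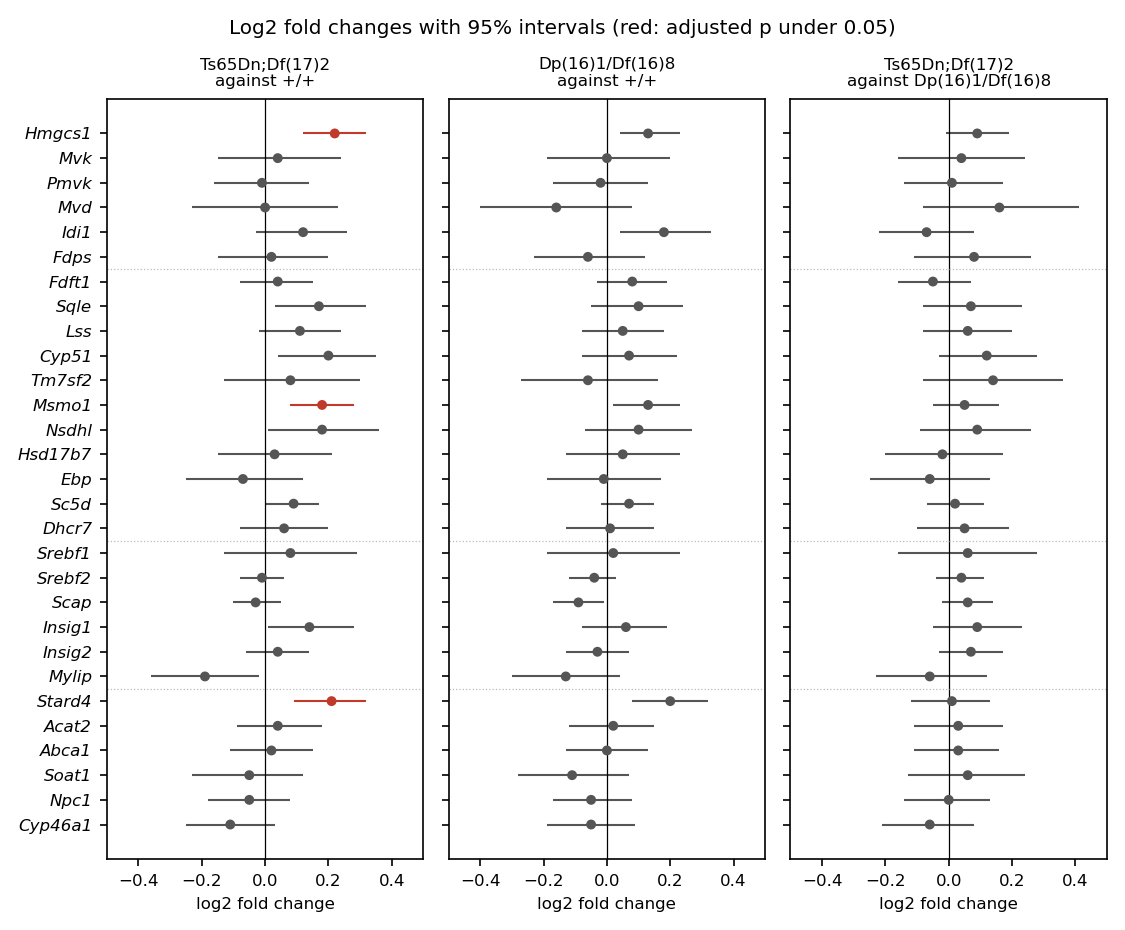
Log2 fold changes of the 29 genes with 95% intervals in the 3 pairwise comparisons, in the order of the list. Dotted lines separate mevalonate and isoprenoid steps, squalene and sterol steps, SREBP control with Mylip, and transport and turnover with Acat2. The 3 red points are Hmgcs1, Msmo1 and Stard4, at 0.22, 0.18 and 0.21.

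In Dp(16)1/Df(16)8 no member passed against +/+, where 0.418% of all genes rose and 0.156% fell. At an unadjusted p under 0.05 in edgeR there were 4 higher, Hmgcs1, Idi1, Msmo1 and Stard4, and 1 lower, Scap, 17.2% of the members against 12.8% of all genes; limma voom and DESeq2 called none either. Stard4 ran from 28.8 over a median of 36.8 to 41.3 CPM, with 8 of 10 animals above the +/+ mean, a log2 fold change of 0.20 (SE 0.0608, edgeR adjusted p = 0.142). It passed in this comparison when Dp(16)1/Df(16)8 replicate 1, the lowest animal at 28.8 CPM, was left out, which made 1 member called. Hmgcs1 ran from 266.4 over 294.2 to 322.8 CPM, with 9 of 10 above (0.13, SE 0.0507, adjusted p = 0.268). Msmo1 ran from 57.7 over 70.7 to 76.9 CPM, also with 9 of 10 above (0.13, SE 0.0519, adjusted p = 0.313). Idi1 stood at 7.60 ± 0.697 CPM in +/+ and 8.66 ± 0.993 here (0.18, SE 0.0738), and Scap at 89.3 ± 5.90 and 84.0 ± 4.45 (-0.09, SE 0.0388). Over the 29 genes 16 values were above 0 (55.2%; 50.5% of all genes) and the median was 0.01 (0.00 for all genes). Both aneuploid genotypes were compared with the same +/+ animals, so their changes are not independent.

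The direct comparison of the aneuploid genotypes called no member. Among all genes 0.0436% were higher in Ts65Dn;Df(17)2 and 0.00623% lower. None of the 29 had an unadjusted p under 0.05 in edgeR, against 4.10% of all genes, and limma voom and DESeq2 called none. Hmgcs1 was 0.09 higher on the log2 scale in Ts65Dn;Df(17)2 (95% interval -0.01 to 0.19), Msmo1 0.05 (-0.05 to 0.16) and Stard4 0.01 (-0.12 to 0.13). The intervals do not show that the genotypes are alike. Over the list 22 values were above 0 (75.9%; 50.1% of all genes), with a median of 0.05 (0.00 for all genes). With the blocks of animal numbers as terms 16 were above 0 and the median was 0.01.

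Further genes of the pathway were taken from 4 lists. In Ts65Dn;Df(17)2 against +/+ 2 of their tested genes fell and none rose. Over lists of 15, 15, 21 and 15 tested genes this count is near the share of all genes, of which 2.22% fell and 1.75% rose. Syvn1, an endoplasmic reticulum ubiquitin ligase, fell by 0.21 on the log2 scale (edgeR adjusted p = 0.0373), the 1 of 15 genes of sterol sensing and SREBP processing that passed. Lrp1, a large receptor that takes up lipoproteins, fell by 0.15 (adjusted p = 0.00206), the 1 of 21 tested of uptake, efflux and trafficking. None of 15 genes of the isoprenoid branch and none of 15 of fatty acid synthesis passed, although Acly, which makes cytosolic acetyl-CoA, had 0.25 (adjusted p = 0.0773) and Elovl5, a fatty acid elongase, 0.26 (adjusted p = 0.0771). The median log2 fold changes of the 4 lists were 0.00 for the isoprenoid branch, 0.04 for sterol sensing, 0.02 for uptake and 0.05 for fatty acid synthesis. None of these genes passed in the other pairwise comparisons.

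In female against male animals 0 of 29 members passed, against 0.0748% of all genes. The 1 member with an unadjusted p under 0.05 in edgeR was Abca1 (log2 -0.14, SE 0.0545, adjusted p = 0.439), 3.45% of the members against 9.94% of all genes, and limma voom and DESeq2 called none. Nsdhl and Ebp, the X-linked members, had -0.08 (SE 0.0730) and 0.14 (SE 0.0764).

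The test of whether the genotype change differed between the sexes also called no member, and 0% of all genes for either genotype, by edgeR, limma voom and DESeq2. For Ts65Dn;Df(17)2, however, the difference female minus male was above 0 for 24 of the 29 genes (82.8%; 50.7% of all genes). Of the 5 Ts65Dn;Df(17)2 females, 2 came from the block of animal numbers without controls, and none of the 5 males did. Sex and block therefore cannot be fully told apart in this difference. At an unadjusted p under 0.05 there were 7 higher and 1 lower, 27.6% of the members against 4.91% of all genes. These were Mvd, Fdps, Mvk, Idi1, Dhcr7, Fdft1 and Nsdhl, and on the lower side Insig2. Mvd ran from 7.03 to 9.90 CPM in the 6 +/+ females and from 10.1 to 13.5 CPM in the 5 Ts65Dn;Df(17)2 females, and from 9.77 to 12.7 CPM in the 6 +/+ males and 8.01 to 9.34 CPM in the 5 Ts65Dn;Df(17)2 males. These ranges did not overlap within either sex, in opposite directions. Mvd had the smallest unadjusted p of the 29, and the share of all tested genes that separate in this way is not given here. The difference of the changes was 0.79 on the log2 scale (SE 0.191, unadjusted p = 2.7e-04 and adjusted p = 0.847 by edgeR). Fdps had means of 9.04 ± 1.59 (SD) CPM in +/+ females, 11 ± 1.24 in Ts65Dn;Df(17)2 females, 11.7 ± 1.31 in +/+ males and 9.99 ± 0.882 in Ts65Dn;Df(17)2 males. Its difference was 0.51 (SE 0.153, edgeR adjusted p = 0.854), and that of Insig2 was -0.28 (SE 0.0901, adjusted p = 0.940). For Mvd and Fdps the mean was lower in females than in males among +/+ animals and higher in females in Ts65Dn;Df(17)2. For Dp(16)1/Df(16)8, compared with the same controls, 17 values were above 0 (58.6%; 50.5% of all genes). At an unadjusted p under 0.05 there were 2 genes, 6.90% of the members against 5.01% of all genes: Mvd (0.67, SE 0.194) and Fdps (0.49, SE 0.155). Without replicate 2 of Dp(16)1/Df(16)8, whose counts went against its sex label, these were 0.54 (SE 0.188) and 0.47 (SE 0.162), and the count for Ts65Dn;Df(17)2 was 8 higher and 1 lower.

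Across the 32 animals, after genotype and sex were removed from log2 CPM, most members went with Hmgcs1. Pearson's r was above 0 for 25 of the 28 other genes, with a median of 0.30 against -0.01 for all other tested genes. None of the 28 relations passed after Benjamini-Hochberg adjustment of permutation p-values, while 9 passed by Spearman's rho. At an unadjusted permutation p under 0.05 there were 10 with r above 0, and Abca1 with r below 0. The cuts on p were not applied to all tested genes, so the count by Spearman's rho has no share to be set against. By Pearson's r, Lss was the lowest of these 10 (r = 0.37) and stood at rank 1000 among the 16041 other tested genes. The 10 of 28 members thus lay within the first 1000 ranks. Acat2 had r = 0.50 (adjusted permutation p = 0.0553) and rho = 0.46 (adjusted p = 0.0362), and r = 0.46 without the 2 animals farthest from the median of Hmgcs1. Fdps had r = 0.47 (adjusted permutation p = 0.0553) and rho = 0.58 (adjusted p = 0.0179), and 0.51 without those 2. Hsd17b7 had r = 0.49, rho = 0.44 and 0.37 without those 2, and Msmo1 r = 0.44, rho = 0.43 and 0.43. Within the block of animal numbers that holds 18 animals, r was 0.39 for Acat2, 0.48 for Fdps, 0.66 for Hsd17b7 and 0.41 for Msmo1. Among 16041 other tested genes ordered by r with Hmgcs1, Acat2 stood at rank 190, Hsd17b7 at 216, Fdps at 259 and Msmo1 at 411. Many genes outside the list thus went with Hmgcs1 as closely. The counts share library, depth and scaling.

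**Figure D4:**
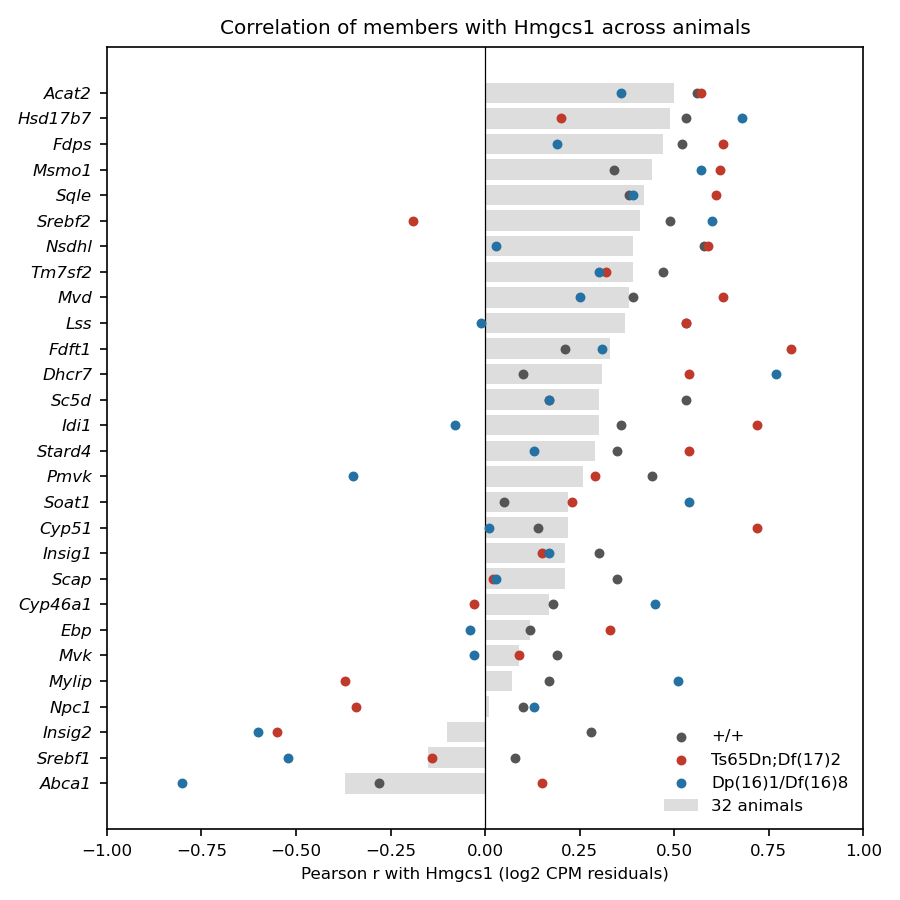
Pearson's r of each member with Hmgcs1 on log2 CPM residuals over 32 animals (bars) and within each genotype (points). Most bars lie right of 0, Acat2 is highest at 0.50 and Abca1 lowest at -0.37, and points within a genotype of 10 or 12 animals spread widely.

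Within single genotypes r spread widely, and its differences between genotypes were not tested. In Ts65Dn;Df(17)2 (n = 10) Fdft1 had r = 0.81 and Cyp51 and Idi1 0.72 each, where Dp(16)1/Df(16)8 (n = 10) had 0.31, 0.01 and -0.08 and +/+ (n = 12) 0.21, 0.14 and 0.36. Other members were higher in Dp(16)1/Df(16)8. Dhcr7 had 0.77 there, 0.54 in Ts65Dn;Df(17)2 and 0.10 in +/+, and Hsd17b7 had 0.68, 0.20 and 0.53. Srebf2 had 0.41 over all animals, and 0.49, -0.19 and 0.60 in +/+, Ts65Dn;Df(17)2 and Dp(16)1/Df(16)8. Among the 5 genes outside the list most like Hmgcs1 across the 32 animals were Bace2, a protease gene of the trisomic region, with r = 0.74, Syt11 with 0.72, Kctd2 with 0.70 and Ppp2r1a with 0.69. They were picked as the highest of all tested genes, and their r is a description. Against +/+ in Ts65Dn;Df(17)2, Bace2 rose by 0.64 on the log2 scale (edgeR adjusted p = 0.0163).

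No relation of the striatal and oligodendrocyte marker scores with the 3 genes that rose passed a test. Pearson's r with the striatal score was -0.25 for Hmgcs1, -0.04 for Msmo1 and -0.24 for Stard4, and with the oligodendrocyte score -0.07, -0.32 and -0.26. Spearman's rho was -0.32, -0.07 and -0.22 for the first and -0.23, -0.30 and -0.20 for the second. Over these 6 relations the lowest adjusted permutation p for r was 0.270. Without the 2 animals farthest from the median score, r was -0.25, 0.01 and -0.14, and -0.04, -0.36 and -0.29.

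**Figure D5:**
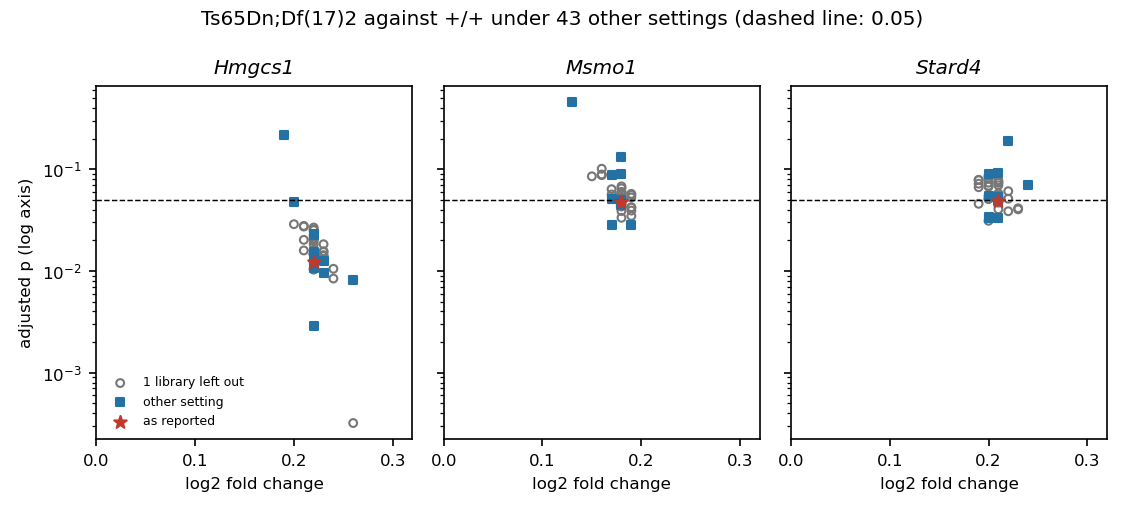
Log2 fold change and adjusted p (log axis) of the 3 genes in Ts65Dn;Df(17)2 against +/+ as reported and in 43 other fits. Hmgcs1 lies below the dashed threshold except with the blocks of animal numbers as terms (adjusted p = 0.216); Msmo1 and Stard4 lie on both sides of it, up to adjusted p = 0.457 and 0.191 with those blocks.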

How the data were processed

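The authors deposited 1 table of raw counts per gene for 32 libraries made from total RNA after removal of ribosomal RNA, per the labels' protocols. The submitters' processing notes name bcl2fastq 2.20, STAR 2.7.9a, featureCounts of Subread 1.6.4 and the builds GRCm38.p6 and GRCh38; the strand setting and annotation release are not given in the sources used here. All 29 members and the gene lists were chosen with earlier results of these data known. Groups and sex came from the labels. Genes were kept by filterByExpr (16042 genes, 99.7% of counts), scaled by TMM and tested with edgeR 4.0.16 (R 4.3.3) by the quasi-likelihood F test with terms for genotype and sex over 32 libraries, adjusted by Benjamini-Hochberg over all tested genes at 0.05; SE is the fold change divided by the square root of F. limma 3.58.1 (voom) and DESeq2 1.42.0 were alternatives. Log2 CPM used a prior count of 2. Correlations used residuals after genotype and sex, with 100000 permutations. Lengths, positions and overlaps came from GENCODE's GRCm38 annotation, matched by identifier for 55141 of 55401 genes; promoters came from RefSeq. Named genes were all members, up to 4 passing genes per list, and the 5 others most correlated with Hmgcs1, of which 1 is not reported here; Acly and Elovl5 were named after their values were seen. The fit was tested on simulated data before use. Replicates were numbered within a genotype in accession order.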

Additional observations from a re-analysis of the deposited data

How the results depend on the processing

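In Ts65Dn;Df(17)2 against +/+ the 3 members called became 1 with RLE factors, with every gene of at least 1 count, without sex as a term, with the striatal score as a term and without the 2 animals numbered below 30000 (Hmgcs1 in each), and 0 with the blocks of animal numbers as terms. The count was 3 with upper-quartile factors, with only the 2 genotypes compared and with DESeq2, 2 with limma voom and 4 with the oligodendrocyte score as a term, which added Sqle. Leaving out 1 library gave 1 to 3, and Msmo1 and Stard4 passed in 11 and 8 of these 32 fits, lost without single libraries of each genotype. In Dp(16)1/Df(16)8 the count was 0 in the other settings and 0 to 1 with 1 library left out. It stayed at 0 between the aneuploid genotypes, between the sexes and for the interaction. The count of members correlated with Hmgcs1, 0 as reported, was 3 with every gene of at least 1 count, 2 with the striatal score, 4 with the oligodendrocyte score and 1 with the animal-number blocks, and 0 to 4 with 1 library left out; limma voom and DESeq2 were not run for it. Over all genes, 637 were called in Ts65Dn;Df(17)2 as reported, 1069 with DESeq2, 331 with every gene of at least 1 count, 280 without the 2 lowest-numbered animals, 151 with the striatal score, 92 with the blocks and 264 to 1486 with 1 library left out; in Dp(16)1/Df(16)8 there were 92, 145 with DESeq2, 256 with the blocks and 74 to 222 with 1 library left out. The cause of these shifts was not tested. No paired analysis was possible because the labels name no pairs of animals, and replicate numbers follow accession order. Animal numbers could group animals only as the blocks used above, and what those blocks stand for is not stated. No member was too scarce for the filter; the lowest count of a member in any library was 34.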
